A study of Mus musculus with 20 samples.

Results

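The genes described here encode 10 enzymes of glycolysis and lactate formation: Hk1, Gpi1, Pfkm, Pfkp, Aldoa, Tpi1, Pgk1, Eno1, Eno2 and Ldha. They were chosen by symbol, as the 10 rows that carry these names among 37051 loci in the deposited count table, of which 26475 had a gene symbol. Each symbol had 1 row. Eno1 was singled out with its difference between the mouse lines already known, so that difference is given as a description with no p-value.

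RNA was sequenced with paired ends from the whole striatum of 20 male Collaborative Cross mice about 6 months old. The mice came from a line selected for overactivity in the cage or from a control line, and the striatum was taken 2 h after saline or after 25 mg/kg of d-amphetamine. Each of the 4 groups (control saline, control amphetamine, overactive saline, overactive amphetamine) held 5 mice, 1 library per mouse. Each type of mouse was 1 line, so selection for activity and any other fixed difference between the lines cannot be told apart. Library totals ran from 31393788 to 53773028 counts. The 12 striatal projection neuron markers in the table, such as Ppp1r1b and Drd2, were present in every library, with a summed level of 4986 to 8232 CPM (counts scaled to library size). Markers of neighbouring tissue varied: the 10 cortical excitatory neuron markers summed to 164 to 369 CPM in overactive saline, against 332 to 929 CPM in control saline. The 10 thalamic and septal markers summed to 411 to 505 CPM in overactive saline 1 and 4 and overactive amphetamine 2 and 3, and to 160 to 284 CPM in the other 16 libraries.

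Glycolysis splits glucose into pyruvate and yields ATP without oxygen. Neurons use it beside mitochondrial respiration to power ion pumping and synaptic vesicle cycling, and astrocytes are known for releasing lactate formed from pyruvate. Most steps have several isozymes that differ between tissues and cell types. Many genes of the pathway are known targets of hypoxia-inducible factor, whose core binding motif contains the letters ACGTG.

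The 250 bases before the start site are shown for 3 members that bear on this motif, because Ldha and Pgk1 are textbook targets of the factor and Eno1 is the member that stood apart in these data. The sequences are from RefSeq on GRCm38.p6, on the strand of the gene and written 5′ to 3′. The windows are chr7:46845554-46845803 for Ldha, chrX:106186850-106187099 for Pgk1 and chr4:150236458-150236707 for Eno1, all on the plus strand. Capitals mark ACGTG on either strand (ACGTG or CACGT), and overlapping matches run together.
Ldha: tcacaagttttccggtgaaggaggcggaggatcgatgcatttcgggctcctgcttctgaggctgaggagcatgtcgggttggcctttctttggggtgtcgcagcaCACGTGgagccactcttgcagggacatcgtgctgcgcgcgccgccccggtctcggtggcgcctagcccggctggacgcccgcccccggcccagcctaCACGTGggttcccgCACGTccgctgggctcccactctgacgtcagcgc
Pgk1: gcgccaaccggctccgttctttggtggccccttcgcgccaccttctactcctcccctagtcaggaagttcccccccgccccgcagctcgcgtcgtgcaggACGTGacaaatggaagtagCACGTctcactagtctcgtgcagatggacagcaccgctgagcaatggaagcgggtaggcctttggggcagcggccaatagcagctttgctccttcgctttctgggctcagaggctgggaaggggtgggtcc
Eno1: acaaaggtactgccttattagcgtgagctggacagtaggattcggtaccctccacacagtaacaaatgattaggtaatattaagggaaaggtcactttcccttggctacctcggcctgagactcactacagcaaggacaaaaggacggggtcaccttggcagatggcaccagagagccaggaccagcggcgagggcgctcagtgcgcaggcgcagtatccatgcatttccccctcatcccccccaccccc
Counting overlapping matches, the Ldha stretch held 5, the Pgk1 stretch 2 and the Eno1 stretch 0. All 10 members matched an entry. Over all start sites listed for a gene, with windows from 250 bases before to 50 bases after each, 5 of the 10 members (Hk1, Pfkm, Aldoa, Pgk1 and Ldha) had the letters in at least 1 window, against 21.8% of 27025 genes. A gene with more windows has more chances to hold the letters, and the number of windows was not matched. By window, the letters were in 1 of 2 for Hk1, 2 of 4 for Pfkm and 2 of 3 for Aldoa. They were in 1 of 1 for Pgk1 and 1 of 2 for Ldha, against 19.6% of all windows. In the first 250 bases alone 3 of 10 had them, against 16.6% of the 32851 windows. None of the 3 windows of Eno1 held them, which says only that these letters are not in those windows.

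Levels of different genes were compared as CPM per kb of the principal transcript. Aldoa, the aldolase that cleaves fructose bisphosphate, was the most abundant member at 765 ± 42.9 CPM per kb (mean ± SD, n = 20). Eno2, the neuronal enolase, followed at 367 ± 17.8, and Tpi1, which interconverts the triose phosphates, at 289 ± 21.6 CPM per kb. These 3 stood clear of one another. Gpi1, the isomerase that turns glucose phosphate into fructose phosphate, lay at 206 ± 8.16 CPM per kb. Eno1, the broadly expressed enolase, was at 179 ± 39.3 CPM per kb and Pgk1, the first ATP-forming kinase of the pathway, at 176 ± 12.2. The place of Eno1 in this order differed between the lines. It was at 144 ± 19.8 and 155 ± 9.15 CPM per kb in control saline and control amphetamine (SD, n = 5), below Pgk1 at 176 ± 9.33 and 185 ± 16.4. In overactive saline and overactive amphetamine it was at 211 ± 26.2 and 208 ± 39.9 CPM per kb, within its spread of Gpi1 at 207 ± 11.6 and 203 ± 6.87. These levels leave out the counts of a near-identical copy of Eno1, described further on. Pgk1 and Ldha have 2 annotated near copies each and Gpi1 has 1, none with a row under its own name. How reads that fit those copies were counted was not tested. Pfkm was at 120 ± 6.91 CPM per kb and Ldha, which reduces pyruvate to lactate, at 120 ± 12.8, again within their spread. Hk1, the main brain hexokinase, which phosphorylates glucose on entry, was at 79.8 ± 6.75 CPM per kb. Pfkp was at 78.7 ± 9.7 CPM per kb, so the first kinase and a subunit of the committing kinase had the lowest levels of the 10.

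Set against their isozymes, the members made up most of the transcript at some steps and not at others. Hk2 was at 0.768 ± 0.116 CPM per kb, and the Hk1 to Hk2 ratio of CPM per kb was 107 ± 20.6. Of the summed phosphofructokinase level, Pfkm made up 51.9% ± 2.93, Pfkp 33.9% ± 2.85 and Pfkl 14.3% ± 0.937 (SD, n = 20). Phosphofructokinase commits sugar to glycolysis, and its subunits differ in how they are regulated. Aldoa exceeded the astrocyte-enriched Aldoc by 3.76 ± 0.474 times per kb. At the lactate step the order was the other way: the Ldha to Ldhb ratio of CPM per kb was 0.485 ± 0.065, so Ldhb, the form typical of oxidative tissue, was the higher. Eno3, the muscle enolase, was at 2.63 ± 0.376 CPM per kb. The glycolytic genes outside the 10 members with the highest levels were Gapdh, at 722 ± 129 CPM per kb, and the pyruvate kinase gene Pkm (listed under its older symbol Pkm2), at 455 ± 36.3.

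**Figure D1:**
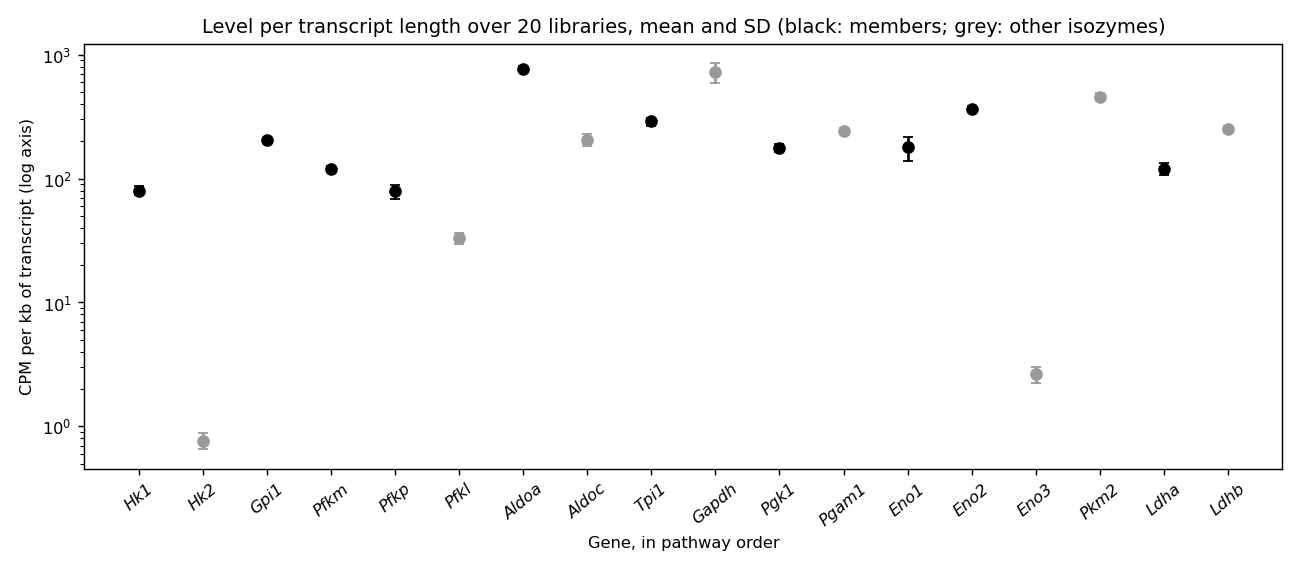
Mean and SD over 20 libraries of CPM per kb of transcript (log axis) for the 10 members (black) and 8 other glycolytic isozymes (grey), in pathway order. Aldoa and Gapdh are highest, at 765 and 722, and Hk2 is lowest, at 0.768.

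Between the lines, Eno1 was the member that stood apart. Eno1 lies at chr4:150236721-150248879 on the plus strand (GRCm38) and encodes the enolase that dehydrates phosphoglycerate. Its level was 327, 301, 329, 239 and 260 CPM in control saline 1 to 5, and 510, 448, 384, 411 and 384 CPM in overactive saline 1 to 5. The highest control value lay under the lowest overactive value, so the 2 saline groups did not overlap. Under amphetamine, the control line had 298, 292, 330, 326 and 330 CPM and the overactive line 302, 382, 460, 451 and 511 CPM. Here overactive amphetamine 1 fell inside the control range and the other 4 lay above it. The log2 fold change between the lines (overactive over control) was 0.55 (SE 0.12) in saline, 0.42 (SE 0.12) under amphetamine and 0.49 (SE 0.08) over both treatments. In bulk tissue, a different number of cells of a type and a different amount of RNA per cell cannot be told apart.

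In edgeR's quasi-likelihood test at a Benjamini-Hochberg adjusted p under 0.05, 1 of 10 members (Eno1) was called between the lines in saline, where 1.11% of 17206 tested loci were called. At an unadjusted p under 0.05 there were 3 members and 17.3% of loci. Under amphetamine 0 of 10 were called, with 0.453% of loci called; 1 member and 12.9% of loci had an unadjusted p under 0.05. DESeq2 called 1 member (Eno1) and 1.87% of loci there, and limma-voom 0 members and 0.616% of loci. Over both treatments 1 of 10 (Eno1) was called, with 7.02% of loci called by edgeR, 12.2% by DESeq2 and 7.92% by limma-voom. Higher values in saline without overlap between the groups were found for 1 member, Eno1, and for 2.36% of loci. Because Eno1 was chosen with this difference known, nothing is read from these counts. The call in saline was lost without any 1 of control saline 2, 4 or 5 or overactive saline 1 or 4, with a log2 fold change of 0.49 to 0.60 over all libraries left out in turn. It was also lost without the 4 libraries highest in thalamic markers, all from overactive mice, at 0.47. Fewer of all loci were called in that fit too. Leaving out overactive amphetamine 1 gave a call under amphetamine, at 0.52. That library had the lowest Eno1 level of its group, so the difference was bound to grow without it.

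Eno1 has a near-identical copy, and the 2 rows moved in opposite directions. The copy is listed in the table as Gm5506, the older name of Eno1b in RefSeq, and GENCODE M21 places Eno1b on chromosome 18 from 48045335 to 48048412. The Gm5506 row spans more of that chromosome, from 47922841 to 48107980. Whether all counts of the row come from Eno1b was not tested. Its transcript was 99.5% identical to that of Eno1 over 1736 aligned bases, with 9 bases that differ or are gapped, so short reads from either gene fit both over most of their length. How the authors' counting divided such reads is not given in the sources used here. Another 2 annotated copies, the processed pseudogenes Gm4735 and Gm5855, had no row under their own name.

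Gm5506 stood at 94, 144, 166, 177 and 197 CPM in control saline 1 to 5, and at 141, 140, 90.8, 91.3 and 98.9 CPM in control amphetamine 1 to 5. In overactive saline 1 to 5 it stood at 7.31, 6.64, 51, 52 and 48.6 CPM, and in overactive amphetamine 1 to 5 at 145, 64.5, 7.04, 53.6 and 7.65 CPM. Within the overactive line 4 libraries lay at 6.64 to 7.65 CPM, 5 between 48.6 and 64.5 CPM, and 1, overactive amphetamine 1, inside the control range. That library is also the one in which Eno1 fell inside the control range. The log2 fold change of Gm5506 between the lines over both treatments was -1.62 (SE 0.47). Over the 20 libraries, log2 CPM of Gm5506 and Eno1 had a Pearson r of -0.90 and a Spearman rho of -0.90, the lowest r with Eno1 among 14377 loci. The points share library, line and, where reads fit both genes, the reads themselves.

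The sum of both rows was far steadier than either. Between the lowest and highest of 20 libraries, Eno1 ranged 2.14-fold, Gm5506 29.7-fold and their sum 1.25-fold. The sum was 447 ± 31.6 CPM in control saline, 428 ± 8.94 in control amphetamine, 461 ± 34.2 in overactive saline and 477 ± 33.1 in overactive amphetamine (SD, n = 5). Refitted as 1 locus, a setting chosen after seeing the data, the sum differed between the lines by a log2 fold change of 0.04 (SE 0.06) in saline, 0.16 (SE 0.06) under amphetamine and 0.10 (SE 0.04, 95% interval 0.02 to 0.19) over both treatments. It was not called by edgeR in any of the 3. The fold change over both treatments, on the log2 scale, was thus 0.49 for the Eno1 row and 0.10 for the sum. As a share of the summed counts, Gm5506 made up 1.41% in overactive saline 1 (95% exact binomial interval 1.25% to 1.59%) and 43.1% in control saline 5 (42.5% to 43.8%). These intervals cover counting error only. The shares lay at separate levels within the control line too. They were 21.6% to 23% in control amphetamine 3, 4 and 5 and control saline 1. In control amphetamine 1 and 2 and control saline 2 and 3 they were 32.2% to 33.5%. Control saline 4 and 5 were at 42.5% and 43.1%. Which of the 2 genes the reads came from was not tested, as no read-level data were analysed here.

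**Figure D2:**
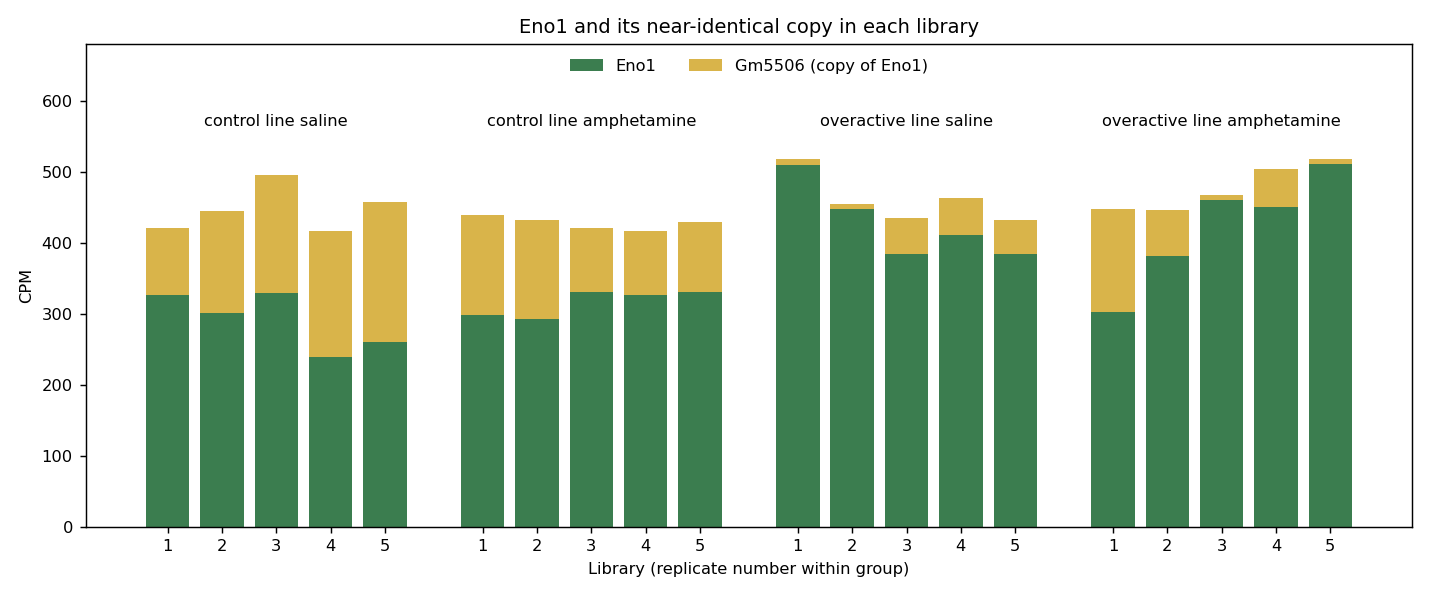
Stacked bars of CPM of Eno1 (green) and of its copy Gm5506 (gold) in each of 20 libraries, by group and replicate number. The summed height stays between 416 and 518 CPM while the gold part runs from 6.64 to 197 CPM.

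Among single-symbol loci with a mean of at least 1 CPM, those whose log2 CPM followed Eno1 most closely over the 20 libraries were Ppp2r5b (Pearson r 0.83), Acy3 (0.83), Neb (0.82), Zfp933 (0.82) and 6330545A04Rik (0.81). All of these loci were also higher in the overactive line over both treatments. Their log2 fold changes were 0.245 (Ppp2r5b), 1.33 (Acy3), 0.90 (Neb), 0.42 (Zfp933) and 1.20 (6330545A04Rik). Their r on deviations from group means is not given here. Zfp933 and 6330545A04Rik lie on chromosome 4, as Eno1 does. Loci of that chromosome were among those with the lowest r too, such as Pik3cd at -0.82. The other 9 members had r with Eno1 between -0.30 (Pfkm) and 0.03 (Eno2). These values include the difference between the lines on which Eno1 was chosen; as deviations from group means, r was -0.11 (Pfkm) to 0.56 (Eno2). Within 1 Mb of Eno1, 21 loci were tested between the lines over both treatments and 19% were called, against 7.02% of all loci. Ctnnbip1, a binding partner of beta-catenin, was higher in the overactive line at a log2 fold change of 0.34, and the orphan receptor gene Gpr157 was higher at 0.33. Pik3cd, a catalytic phosphoinositide kinase subunit, was lower at -0.47, and the mitochondrial carrier gene Slc25a33 was lower at -0.18. Within 1 Mb of the other members, 0% to 8.11% of tested loci were called.

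The remaining 9 members differed little between the lines. Over both treatments all 9 had a lower fitted level in the overactive line, by -0.01 to -0.16 on the log2 scale, and 0 of the 9 were called by edgeR. Of these 9, 1 (Ldha) had an unadjusted p under 0.05, as had 25.6% of loci, and DESeq2 and limma-voom called none of them. The median over all 10 members was -0.06, against 0.00 over all loci tested. The 95% intervals bound these differences: none of the 9 reached below -0.31 or above 0.05.

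At the top of the pathway, Hk1 (chr10:62268855-62379908) was at 303 ± 16.9 CPM in control saline and 282 ± 19.6 in overactive saline. Its difference between the lines over both treatments was -0.08 (SE 0.04, edgeR adjusted p = 0.259). Gpi1 (chr7:34201330-34230336) was the steadiest member, with a log2 fold change of -0.01 and a 95% interval of -0.07 to 0.05. Pfkm (chr15:98092589-98132451) differed by -0.05 (SE 0.04) and Pfkp (chr13:6579768-6648777) by -0.15 (SE 0.08, edgeR adjusted p = 0.217). Pfkp varied most of the 9: in overactive amphetamine its lowest, median and highest libraries were at 228, 295 and 382 CPM. The Pfkp locus overlaps the end of Pitrm1, and the sources used here do not state whether counting used strand, so reads from the 2 genes may be mixed there.

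In the middle of the pathway, Aldoa (chr7:126795234-126800751) differed between the lines by -0.05 (SE 0.04) and Tpi1 (chr6:124810586-124814296) by -0.08 (SE 0.05). In saline alone, Tpi1 was at 486 ± 32 CPM in the control and 441 ± 44.6 in the overactive line, with overlapping groups and a log2 fold change of -0.14 (SE 0.07, edgeR adjusted p = 0.268). Pgk1 (chrX:106187100-106203699) differed by -0.08 (SE 0.04) over both treatments. Eno2 (chr6:124760053-124769673), the enolase long used as a marker of neurons, differed by -0.04 (SE 0.03). The Eno2 to Eno1 ratio of CPM per kb was 2.67 ± 0.366 in control saline and 1.74 ± 0.175 in overactive saline. Against Eno1 plus its copy, the Eno2 ratio was 1.72 ± 0.107 and 1.61 ± 0.0922 in the same groups.

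Ldha (chr7:46841475-46855627) came nearest to a call among the 9. It was at 238, 217, 215, 197 and 222 CPM in control saline 1 to 5 and at 192, 198, 176, 179 and 214 CPM in overactive saline 1 to 5. The overactive values lay mostly lower, but the groups overlapped. Under amphetamine it was at 216, 249, 235, 236 and 214 CPM in the control line and at 211, 171, 195, 244 and 229 CPM in the overactive line. Over both treatments the log2 fold change was -0.16 (SE 0.06, edgeR adjusted p = 0.0934). Leaving out overactive amphetamine 4, which held the highest Ldha value of its group, gave -0.19 and a call (edgeR adjusted p = 0.0455), and over all libraries left out in turn the value ran from -0.19 to -0.12. The Ldha to Ldhb ratio of CPM per kb was 0.499 ± 0.0557 in control saline and 0.433 ± 0.0441 in overactive saline.

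**Figure D3:**
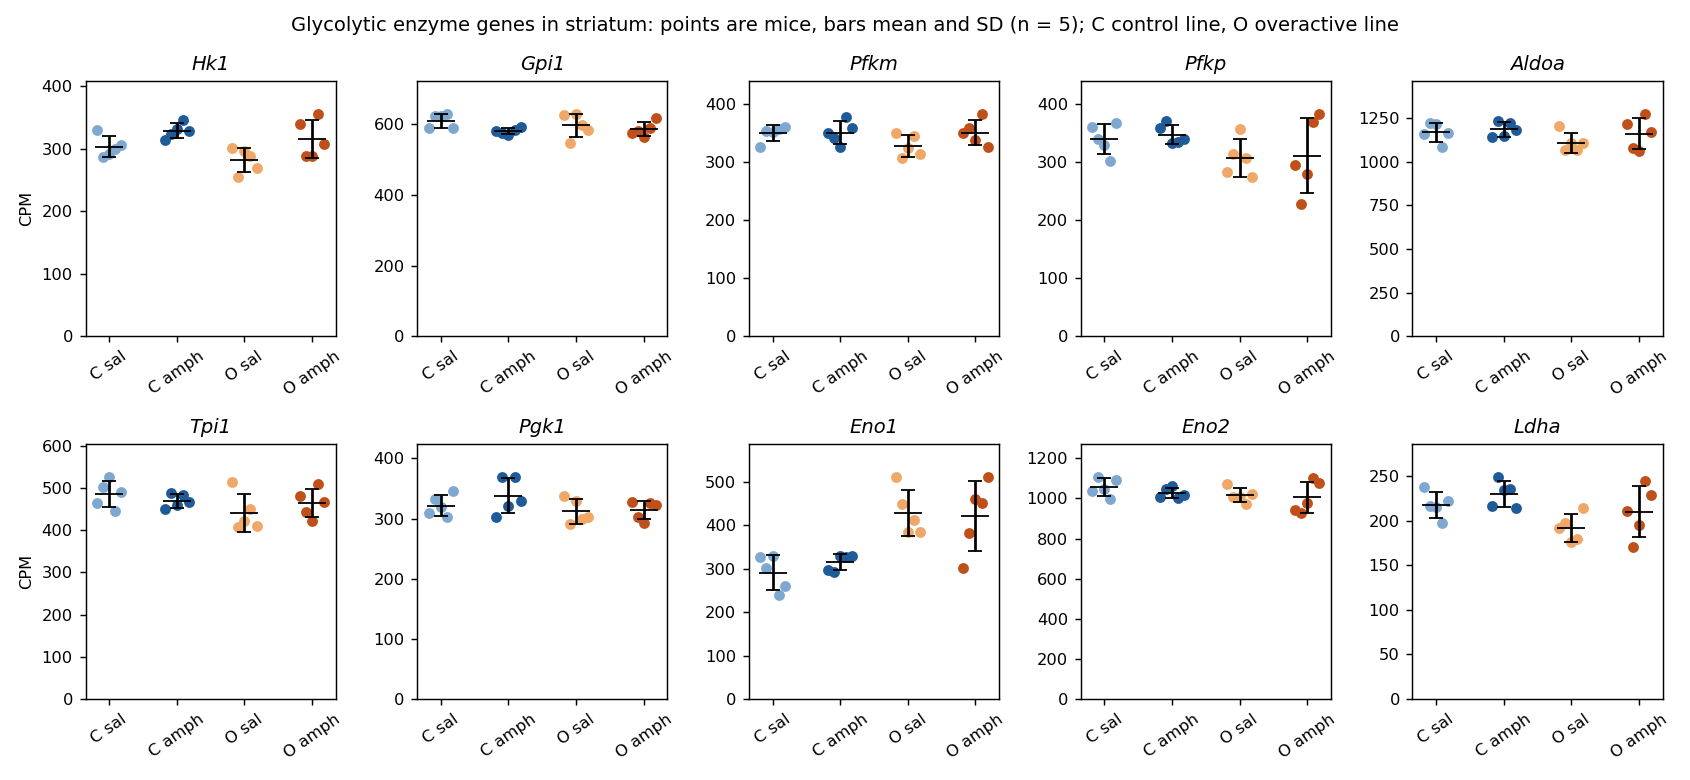
CPM of each of the 10 members (vertical axes from 0) in the 4 groups, where C is the control line, O the overactive line, points are mice and bars are mean and SD (n = 5). Eno1 separates the lines in saline, at 239 to 329 against 384 to 510 CPM, and the other 9 members overlap between the lines in saline.

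Amphetamine moved no member past the threshold. At 2 h, edgeR called 0 of 10 members in the control line, 0 in the overactive line and 0 over both lines, and 0% of the 17206 loci in each. At an unadjusted p under 0.05 the counts of members were 0, 1 and 1, where 5.56%, 8.03% and 11% of loci met it. DESeq2 called 0 members in each, with 0%, 0.247% and 1.41% of loci called, and limma-voom 0 members and 0% of loci. The DESeq2 shares are of the 17199, 16198 and 12867 loci it tested in these comparisons. Over both lines 8 of 10 members had a higher fitted level after amphetamine, with a median of 0.04 against -0.01 over all loci.

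Hk1 had the largest difference after amphetamine. It was at 330, 287, 292, 299 and 306 CPM in control saline 1 to 5 and at 314, 324, 332, 346 and 328 CPM in control amphetamine 1 to 5. In overactive saline it was at 301, 255, 297, 289 and 269 CPM, and in overactive amphetamine at 339, 289, 288, 355 and 307 CPM. The amphetamine groups lay higher on average, and in each line they overlapped the saline group. Over both lines the log2 fold change was 0.14 (SE 0.04, 95% interval 0.05 to 0.23, edgeR adjusted p = 0.231). Summed markers of cortical excitatory neurons moved with the treatment as well, from 586 ± 270 to 793 ± 108 CPM in the control line and from 252 ± 97.3 to 668 ± 341 in the overactive line. Of those 10 markers, all in the table and none at 0, 10 had a positive fitted difference; their part in the Hk1 difference was not tested.

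Ldha had a log2 fold change of 0.10 (SE 0.06, edgeR adjusted p = 0.507) over both lines. Eno1 was at 0.12 (SE 0.12, edgeR adjusted p = 0.912) in the control line and -0.02 (SE 0.12, edgeR adjusted p = 0.989) in the overactive line. The other 7 members lay between -0.05 (Gpi1) and 0.05 (Pfkm) over both lines. When the response to amphetamine was compared between the lines (the interaction), edgeR, DESeq2 and limma-voom each called 0 of 10 members and 0% of loci, with 0 members and 2.96% of loci at an unadjusted p under 0.05 in edgeR. The interaction for Eno1 was -0.14 with a 95% interval of -0.49 to 0.22 (edgeR adjusted p = 1). For Gpi1 the interval was narrower, -0.08 to 0.16.

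**Figure D4:**
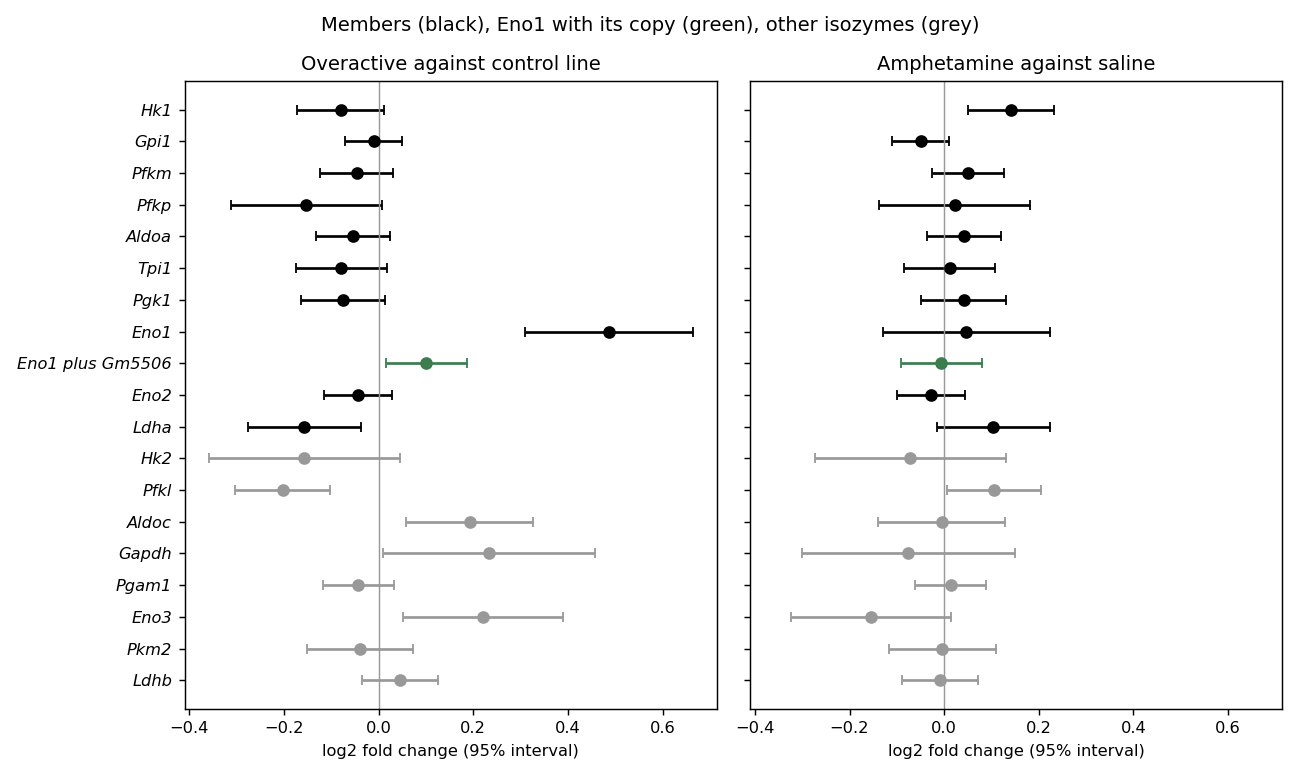
Log2 fold changes with 95% intervals from edgeR for the line (left, over both treatments) and amphetamine (right, over both lines), for members (black), Eno1 summed with its copy (green) and other isozymes (grey). In the left panel Eno1 is at 0.49 and its sum with Gm5506 at 0.10, and in the right panel Hk1 is the highest member, at 0.14.

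Isozymes outside the 10 members were compared in the same fits. Of 16 tested, edgeR called 1 between the lines over both treatments, a share near the 7.02% of all loci, and it was lower: Pfkl, the liver-type phosphofructokinase subunit, at -0.20 (SE 0.05, edgeR adjusted p = 0.0164). Pfkl was at 129 ± 7.6 CPM in control saline and 109 ± 7.75 in overactive saline. Aldoc had a log2 fold change of 0.19 (SE 0.06, edgeR adjusted p = 0.0709), opposite in sign to Aldoa; the difference between the 2 genes was not tested. The Aldoa to Aldoc ratio of CPM per kb was 4.01 ± 0.316 in control saline and 3.37 ± 0.119 in overactive saline. Among 9 tested astrocyte markers, 3 (Gja1, Aldh1l1 and Fgfr3) were called higher in the overactive line by edgeR, against 7.02% of loci called in either direction. None of these 9 was at 0, while the row of Slc1a2, a defining astrocyte gene, is listed at 0 in every library and was not tested. Gfap (-0.34) and S1pr1 (-0.08) had a lower fitted level. Without the 4 libraries highest in thalamic and septal markers, 1 of the list (Fgfr3) was called. All 4 are from overactive mice, and edgeR also called fewer of all loci without them. The summed level of the 9 markers was 1216 to 1360 CPM in control saline and 1330 to 1635 CPM in overactive saline, and their part in the Aldoc difference was not tested. Gapdh was at 0.23 (SE 0.11, edgeR adjusted p = 0.18); it has 73 annotated near copies, of which 3 had a row, with 1.53% of the summed counts. Eno3 was at 0.22 (edgeR adjusted p = 0.0951), Hk2 at -0.16, Ldhb at 0.05, Pgam1 at -0.04 and Pkm at -0.04, none of them called by edgeR. DESeq2 called 3 of the 16, where it called 12.2% of all loci, and limma-voom 1, where it called 7.92%.

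Genes that feed or flank the pathway changed at few points. None of 10 glucose and lactate transporters, of 16 glycolytic regulators and pyruvate entry genes or of 8 pentose phosphate genes was called by edgeR between the lines over both treatments. At an unadjusted p under 0.05 the counts were 3, 3 and 2, where 25.6% of all loci met it. DESeq2 called 1, 1 and 0 of them, with 12.2% of loci called, and limma-voom 1, 0 and 0, with 7.92%. The blood-brain barrier transporter Slc2a1 was at 0.14 (SE 0.06, edgeR adjusted p = 0.155) and the neuronal transporter Slc2a3 at -0.07 (SE 0.04, edgeR adjusted p = 0.335). Pgm2, a phosphoglucomutase family member from the glycogen list, rose in the overactive line by 0.28 (SE 0.08, edgeR adjusted p = 0.0394). From that list edgeR called 2 genes, 1 of them not reported here, where it called 7.02% of all loci. DESeq2 and limma-voom called 3 each, with 12.2% and 7.92% of loci called. Of 20 hypoxia-responsive genes, edgeR called 1 higher and 2 lower, where it called 7.02% of all loci. DESeq2 called 4 of the 20, where it called 12.2%, and limma-voom 3, where it called 7.92%. Ddit4, a stress-induced inhibitor of mTOR signalling, was higher by 0.27 (edgeR adjusted p = 0.0214). Bhlhe40, a transcriptional repressor, was at -0.27 (edgeR adjusted p = 0.0288), and Egln1, the oxygen sensor that marks hypoxia-inducible factor for destruction, at -0.22 (edgeR adjusted p = 0.0125). The median of the hypoxia list was -0.01, against 0.00 over all loci. Without the 4 libraries highest in thalamic and septal markers, none of Pfkl, Pgm2, Ddit4, Bhlhe40 and Egln1 was called by edgeR, with adjusted p from 0.0806 (Pfkl) to 0.256 (Pgm2) and unchanged signs. Their log2 fold changes were then -0.19 (Pfkl), 0.17 (Pgm2), 0.21 (Ddit4), -0.22 (Bhlhe40) and -0.19 (Egln1). That fit held fewer overactive mice, and fewer of all loci were called in it. With each library left out in turn, Pgm2 was called in 7 and Bhlhe40 in 16 of 20 fits, and Pfkl, Ddit4 and Egln1 in all 20.

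Members varied together within groups to differing degrees. The within-group SD of log2 CPM was 0.05 for Gpi1, 0.07 for Eno2 and 0.08 for Pfkm and Aldoa, against a median of 0.10 over loci with a mean log2 CPM of at least 7. It was 0.18 for Pfkp and 0.20 for Eno1, higher than for 85.7% and 91.0% of those loci. Gm5506 had a within-group SD of 1.28. As deviations from group means, Aldoa correlated with Tpi1 at r = 0.87 and with Pgk1 at r = 0.76, and Eno2 with Ldha at r = 0.68 (20 libraries, which share depth and dissection within each pair). On the same deviations Eno1 correlated with Eno2 at r = 0.56, with Tpi1 and Ldha at r = 0.30, and with the other 6 members at r = -0.11 (Pfkm) to 0.27 (Pfkp). All 10 members stood above the group mean in overactive amphetamine 4, by a median of 0.14 on the log2 scale. In overactive amphetamine 2 and 3 and in control amphetamine 1, 9 of 10 stood below it, and in overactive saline 1, 9 of 10 stood above it. Overactive amphetamine 4 had the highest summed level of cortical markers of all libraries, 1096 CPM, and overactive amphetamine 2 the lowest of its group, 250 CPM. Control amphetamine 1 was at 790 CPM of these markers and overactive saline 1 at 345 CPM, within the range of their groups. Thalamic and septal markers were high in overactive amphetamine 2 and 3, at 455 and 453 CPM, where most members were low, and in overactive saline 1, at 505 CPM, where most were high. The part of either marker list in these deviations was not tested.

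**Figure D5:**
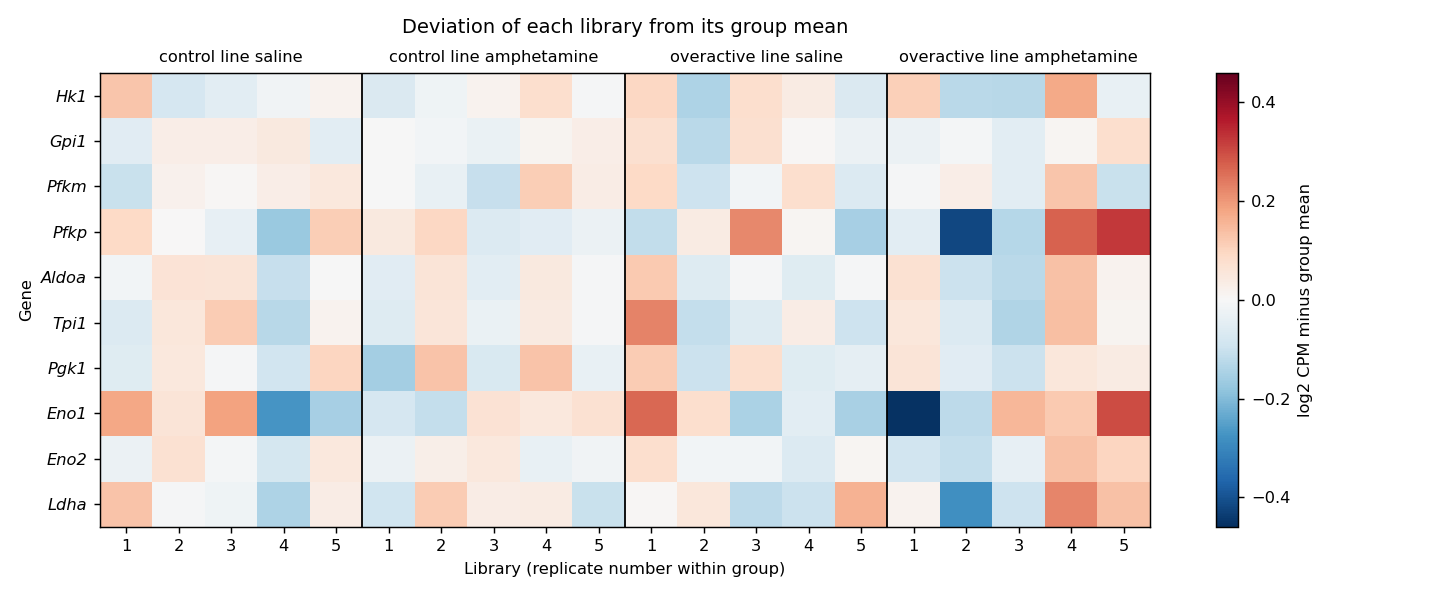
Heat map of the deviation of log2 CPM from the group mean for the 10 members (rows) in 20 libraries (columns, by group and replicate), red above and blue below the mean. Overactive amphetamine 4 is red in all 10 rows, and the strongest blue is Eno1 in overactive amphetamine 1, at -0.46.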

How the data were processed

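The authors deposited 1 table of expected counts per locus for the 20 libraries, not scaled between libraries. The submitters' processing notes name the builds mm10 and GRCm38, and the aligner, counter and strand setting are not given in the sources used here. Of all values, 93.9% were whole within 0.01, and counts were rounded. The 10576 loci without a symbol (0.591% to 0.714% of counts per library) were left out, and 626 loci with several symbols were kept. Library totals were 31393788 to 53773028 counts, which gave a median SE of 0.11 (log2) between 2 groups and 0.08 over both treatments. edgeR 4.0.16 (R 4.3.3) with TMM scaling, its low-count filter and the quasi-likelihood test was fitted once to all 4 groups and 17206 loci for 7 comparisons, with Benjamini-Hochberg adjustment over all loci. Comparisons that use the same group share its libraries.

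Levels are TMM-scaled CPM, divided for comparisons between genes by the length of the principal transcript in GENCODE M21. Copies were transcripts of at least 95% identity over 500 aligned bases. Named were all 10 members, the main other isozymes and transporters, the Eno1 copy, called genes of the pathway lists (1 result is not reported here), called loci within 1 Mb of Eno1, and the 5 loci most correlated with Eno1. Members and lists were chosen with earlier results of these data known. Counts were simulated for the line comparison over both treatments, with 200 of 17206 genes changed, each at 1 of the folds given next. Of the genes changed at each fold, the share recovered was 52% at 1.25, 86% at 1.5, 94% at 2 and 100% at 4. Of 168 calls, 2 were false. In the data edgeR called 1208 loci in this comparison, more than were changed in the simulation, so recovery in the data may differ. Alternatives were RLE scaling, filters at 1 CPM in 5 libraries and at none, DESeq2 1.42.0, limma-voom (limma 3.58.1), fits of only the groups compared, a block for the replicate number, and each library left out. Another 2, the summed Eno1 and Gm5506 counts and leaving out the 4 libraries highest in thalamic markers, were chosen after seeing the data.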

Additional observations from a re-analysis of the deposited data

Results flagged for a closer look

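Aldoa in overactive saline 1 stood at 1205 CPM, while the other 4 mice of that group lay close together. Divided by the range of the group, the gap to the nearest of them in CPM exceeded Dixon's 95% critical value for 5 samples, 0.71. As log2 deviations from the group mean that library was at 0.1201, the next at -0.0039 and the lowest at -0.0576. On that scale the ratio fell just short of the critical value, so the flag depends on the scale. Such a gap was looked for in 48 groups, of which chance flags about 1 in 20. Tpi1 was also highest in that library within its group, 515 CPM, and Eno1 at 510 CPM.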

How the results depend on the processing

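Members called between the lines in saline fell from 1 to 0 with the Eno1 and Gm5506 counts summed and also after leaving out the 4 libraries with most thalamic marker RNA, and ran from 0 to 1 over libraries left out in turn. Under amphetamine the count was 1 with DESeq2 and 0 to 1 over libraries left out. Over both treatments it was 0 with the summed counts and 1 to 2 over libraries left out. The cause was not tested. The amphetamine and interaction counts stayed at 0 in all settings. The following log2 fold changes changed sign, none of them called. With summed counts, Eno1 differed after amphetamine by -0.0625 in the control line, 0.0501 in the overactive line, -0.0062 over both and 0.1125 for the interaction. Without those 4 libraries, Hk1 between the lines under amphetamine was 0.0229, Eno1 after amphetamine in the overactive line 0.0644 and Eno2 after amphetamine over both lines 0.0047. With 1 library left out, Gpi1 between the lines over both treatments ran from -0.0196 to 0.0040 and Eno1 after amphetamine in the overactive line from -0.1002 to 0.0772. Over both lines after amphetamine, Pfkp ran from -0.0208 to 0.0688 and Tpi1 from -0.0073 to 0.0428. The interaction ran from -0.0041 to 0.0730 for Hk1 and from -0.0064 to 0.1124 for Ldha. Summing all rows with a member's symbol was not run, as each had 1 row. Over all loci, between the lines DESeq2 called 764 in saline, 322 after amphetamine and 2095 over both, and 40 and 181 after amphetamine in the overactive line and over both lines, against 191, 78, 1208, 0 and 0 with edgeR. Without those 4 libraries edgeR called 95, 17, 323, 31 and 80.

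With a replicate block (the replicate number as a term), members called between the lines were 0 in saline, 0 after amphetamine and 1 over both, and loci called 187, 51 and 1225. Same-numbered libraries deviated together in 10 of 30 pairs at r over 0.1 (range -0.23 to 0.25), and 6 of 20 libraries correlated best with their own number, so the numbers were not taken as pairs.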
